A study of Mus musculus with 18 samples.

Results

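The 40 genes described here are expressed by the cells of blood vessels, and they were taken from a list of symbols. The list sets no threshold on measured values, but it was drawn up with earlier results of these data known. All 40 were matched to the 38561 genes of the count tables and all 40 passed the filter for testing, which required at least 10 counts in at least 1 of 18 libraries and left 17545 genes. RNA sequencing was run on 3 brain regions of adult C57 Bl6J mice (frontal cortex, striatum and hippocampus, the order in which values for the 3 regions are given throughout), with 3 wild-type (WT) and 3 PCM1 KO libraries in each region. Pcm1 encodes a scaffold protein of centriolar satellites, the granules around the centrosome that supply the cilium. The knockout (Pcm1 KO) came from a gene-trap insertion in the embryonic stem cell line E14Tg2a.4. It was backcrossed to C57BL/6J for at least 3 generations. Both sexes were used, and the controls were WT littermates. The insertion was not restricted to vessel cells. The labels do not name the animals. Names of the deposited files tie the 18 libraries to 6 animals, with 3 regions each. WT animal A gave frontal cortex replicate 1, striatum replicate 2 and hippocampus replicate 1. WT animal B gave replicates 2, 3 and 2 of these regions and WT animal C gave replicates 3, 1 and 3, whereas Pcm1 KO animals D, E and F gave replicates 1, 2 and 3 of every region.

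Brain capillaries are lined by endothelial cells sealed by tight junctions, and the transporters in their membranes decide what passes between blood and brain. Pericytes sit on the capillary wall inside the same basement membrane, and ring-shaped smooth muscle cells wrap arterioles and set their diameter. The genes were grouped by these roles: 15 junction, adhesion and receptor genes, 7 genes of barrier transport and other barrier-endothelial proteins, 3 endothelial transcription factors, 6 pericyte genes, 6 smooth muscle genes and 3 genes of the basement membrane and its surroundings.

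Libraries held 24950537 to 33405081 counts on genes, and the 40 genes had between 3 counts (Cnn1) and 14712 counts (Bsg) in a library. Pcm1 was at 11.8 to 17.6 CPM, counts scaled to library size (TMM), in the 9 Pcm1 KO libraries and at 119.9 to 171.7 CPM in the 9 WT libraries. Markers of the dissected tissue followed the labels, as the cortical neuron genes summed to at least 601.5 CPM in the frontal cortex and to at most 187.8 CPM elsewhere, and the striatal neuron genes to at least 3656 CPM in the striatum and to at most 137.6 CPM elsewhere. The 5 hippocampal neuron genes separated the regions less, at 624.7 to 847.0 CPM in the hippocampus and 200.7 to 606.7 CPM elsewhere. WT striatum replicate 3 stood apart, with a choroid plexus sum of 6215 CPM against 34.6 to 175.1 CPM in the other 5 striatal libraries. The choroid plexus sum was 235.9 to 6516 CPM in the hippocampus and at most 13.3 CPM in the frontal cortex.

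Levels of the vessel genes were compared with each other per kilobase of exon. In WT frontal cortex Bsg (basigin), which many brain cells express, was highest at 209.2 CPM per kilobase, and Slc2a1, the glucose transporter of the barrier, followed at 31.2 CPM per kilobase. The pericyte genes Vtn (vitronectin) and Rgs5 (a regulator of G protein signalling) were at 27.4 and 22.0 CPM per kilobase. Among the junction genes Cldn5, the main claudin of the tight junction, was highest at 16.5 ± 6.80 CPM per kilobase (SD, n = 3). The smooth muscle genes were low, from 7.04 CPM per kilobase for Myl9 down to 0.191 CPM per kilobase for Cnn1. The defining endothelial and pericyte genes were thus present in every library, with at least 353 counts of Cldn5, 470 of Pecam1 and 415 of Pdgfrb.

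The first question was whether vessel genes differed between genotypes. The smooth muscle gene Acta2 was lower in Pcm1 KO frontal cortex than in WT and was the 1 gene of the 40 to pass an adjusted p of 0.05 by edgeR, in that region. The other 5 smooth muscle genes had lower values with no overlap between genotypes in the frontal cortex and the hippocampus, without passing it by edgeR. Of all genes, 9.28% and 6.46% were lower with no overlap in these regions. Of the 40 genes, 33 (frontal cortex), 31 (striatum) and 37 (hippocampus) had a negative log2 fold change, Pcm1 KO against WT. Over all 17545 genes tested, 9105, 8929 and 8806 were negative. The median log2 fold change of the 40 genes was -0.31, -0.15 and -0.37 in these regions, whereas the median over all genes was at most 0.01 from 0. The frontal cortex median was -0.12 when WT replicate 1 was left out and -0.14 with the sequencing lane as a covariate, and the hippocampal one was -0.21 without WT replicate 1. Most of the negative values were small and did not pass the adjusted threshold. In bulk tissue a smaller number of vessel cells and less RNA per vessel cell cannot be told apart.

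**Figure D1:**
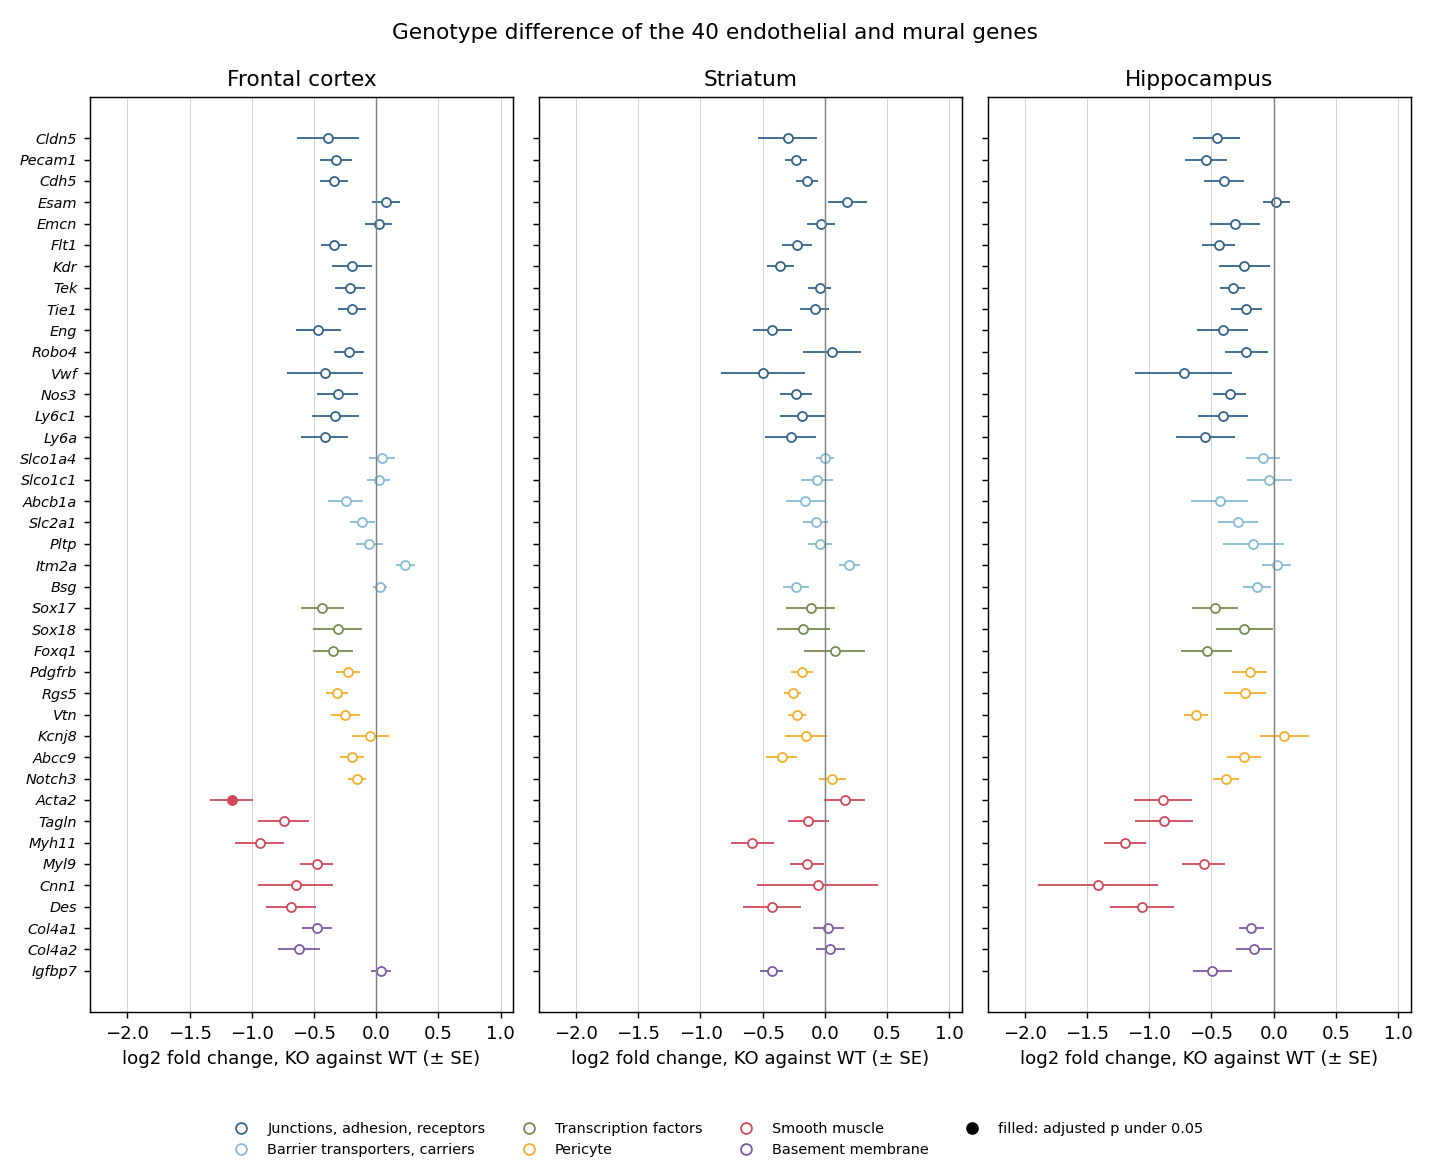
Each point is the log2 fold change of a gene in Pcm1 KO against WT (x axis, ± SE, n = 3 libraries per genotype), in 1 panel per region and coloured by gene group. The filled point is Acta2 in the frontal cortex at -1.16. Most points lie left of 0, the smooth muscle genes farthest in the frontal cortex and the hippocampus.

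With p-values from edgeR (quasi-likelihood, Benjamini-Hochberg adjusted), 1 of 40 genes was called in the frontal cortex, where 1.74% of all genes were called in either direction. None of the 40 was called in the striatum (0.0285% of all genes) or the hippocampus (0.0171%) at an adjusted p under 0.05. At an unadjusted p under 0.05, 14 of 40 were lower and 1 was higher in the frontal cortex, where 7.47% of all genes were lower and 7.84% higher. In the striatum 8 were lower and 1 higher, against 6.98% and 6.54% of all genes. In the hippocampus 18 were lower and 0 higher, against 5.06% and 4.84% of all genes. With DESeq2, 7, 1 and 4 of the 40 genes were called in the 3 regions in turn, against 3.93%, 2.78% and 1.25% of all genes, so that the striatal count was near that of all genes. Its calls, each lower in Pcm1 KO, were Acta2, Myh11, Tagln, Col4a1, Col4a2, Rgs5 and Flt1 in the frontal cortex, Igfbp7 in the striatum and Acta2, Myh11, Tagln and Vtn in the hippocampus. The 3 libraries of the higher genotype lay wholly above the 3 of the other for 16 genes lower in Pcm1 KO in the frontal cortex (9.28% of all genes), 10 in the striatum (9.39%) and 18 in the hippocampus (6.46%). The opposite order, Pcm1 KO wholly above WT, held for 1 gene in the frontal cortex (12% of all genes), 1 in the striatum (9.6%) and 0 in the hippocampus (10.6%). The count of genes lower at an unadjusted p under 0.05 in the frontal cortex moved from 14 to 9 with the sequencing lane as a covariate and to 7 in 1 fit of all 18 libraries with lane. That in the striatum moved from 8 to 15 when WT striatum replicate 3 was left out and to 4 in 1 fit of all 18 libraries, and the hippocampal count moved from 18 to 11 without Pcm1 KO hippocampus replicate 1. In all 3 regions together 26 of 40 genes had negative values, as did 4376 of all genes, and 2 had positive values. The 3 regions came from the same 6 animals and are therefore not 3 independent comparisons.

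Of the 6 groups, smooth muscle genes had the most negative medians in the frontal cortex and hippocampus. Acta2, at chr19:34241090-34255590 on the minus strand (GRCm38), encodes smooth muscle α-actin, the thin-filament actin of contractile vessel walls. In the frontal cortex it was at 7.25, 5.82 and 4.83 CPM in the WT libraries and at 2.45, 2.66 and 2.95 CPM in the Pcm1 KO libraries. The groups did not overlap, and the lowest WT library lay above the highest Pcm1 KO library. The log2 fold change was -1.16 ± 0.17 (SE), with an adjusted p of 0.0186 by edgeR. The call was lost when Pcm1 KO replicate 1, 2 or 3 or WT replicate 2 was left out (adjusted p = 0.122, 0.0793, 0.0675 and 0.0695), with the sequencing lane as a covariate (adjusted p = 0.0790) and in 1 fit of all 18 libraries with lane (adjusted p = 0.0546). The direction held in each of these. In the hippocampus Acta2 was at 13.8, 19.4 and 9.44 CPM in WT and at 8.12, 7.76 and 7.30 CPM in Pcm1 KO, again with no overlap (log2 fold change -0.89 ± 0.23, adjusted p = 0.397). In the striatum the order did not hold, with 7.35, 5.73 and 8.31 CPM in WT and 7.14, 8.82 and 7.85 CPM in Pcm1 KO (0.16 ± 0.16, adjusted p = 0.718).

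Myh11 encodes the smooth muscle myosin heavy chain, the motor that pulls on actin in these cells, and it lies at chr16:14194535-14291372 on the minus strand. In the hippocampus it was at 9.55, 9.07 and 7.32 CPM in WT and at 3.29, 4.45 and 3.74 CPM in Pcm1 KO. The WT libraries were all above the Pcm1 KO libraries, and the log2 fold change of -1.20 ± 0.17 had an unadjusted p of 0.000127 and an adjusted p of 0.278 by edgeR. Myh11 in the frontal cortex was at 6.16, 4.72 and 5.94 CPM in WT and at 3.35, 2.10 and 3.41 CPM in Pcm1 KO (-0.94 ± 0.20, adjusted p = 0.0575). In the striatum it was at 6.40, 4.90 and 4.89 CPM in WT and at 3.82, 3.02 and 3.94 CPM in Pcm1 KO (-0.58 ± 0.17, adjusted p = 0.229). Myh11 thus had non-overlapping groups in all 3 regions. It and Pecam1, the platelet and endothelial adhesion molecule, were the 2 genes with negative values at an unadjusted p under 0.05 in every region, and non-overlap in every region also held for 2 genes, Myh11 and Cdh5. Of all genes, 0.633% were lower at an unadjusted p under 0.05 in every region and 0.422% without overlap in every region. One fit of all 18 libraries called Myh11 in the frontal cortex (adjusted p = 0.0305) and the hippocampus (adjusted p = 0.0127), and with lane added the frontal cortex call was lost (0.0797) and the hippocampal one kept (0.0201).

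Tagln (transgelin, an actin-binding protein) was at 8.55, 7.12 and 4.53 CPM in WT hippocampus and at 3.68, 3.86 and 3.53 CPM in Pcm1 KO hippocampus (-0.88 ± 0.23, adjusted p = 0.396). Its exons share 1241 bases with a gene of the opposite strand, and 14 of the 40 genes share exon bases in this way, Foxq1 most with 3200. Whether counting used strand is not given in the sources used here. Des encodes desmin, the muscle intermediate filament. It was at 2.97, 2.40 and 1.98 CPM in WT hippocampus and at 0.987, 1.09 and 1.47 CPM in Pcm1 KO hippocampus (-1.06 ± 0.26, adjusted p = 0.391), with no overlap. Myl9, the regulatory light chain of smooth muscle myosin, and Cnn1, calponin, completed the group. Frontal cortex and hippocampus values were -0.48 ± 0.13 and -0.56 ± 0.17 for Myl9 and -0.65 ± 0.30 and -1.41 ± 0.48 for Cnn1, and Tagln in the frontal cortex was at -0.74 ± 0.20 (adjusted p = 0.123). All 6 genes were lower with no overlap in both the frontal cortex and hippocampus, 5 and 6 of them at an unadjusted p under 0.05, whereas 1 of 6 was in the striatum. The group median was -0.71, -0.14 and -0.97 in the 3 regions. Cnn1 rested on 3 to 27 counts per library.

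**Figure D2:**
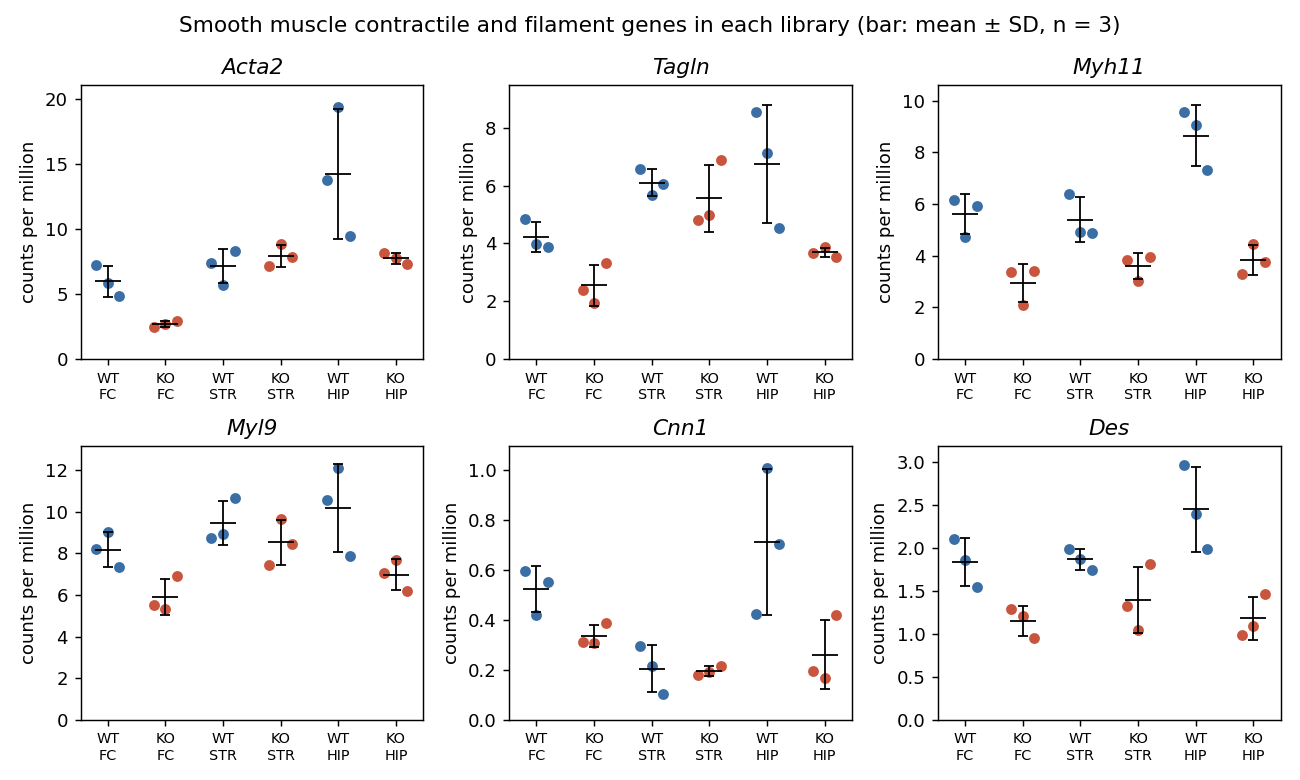
CPM (y axis) of the 6 smooth muscle genes in each library of WT (blue) and Pcm1 KO (red) frontal cortex (FC), striatum (STR) and hippocampus (HIP). Horizontal bars are means and vertical bars SD over 3 libraries. The colours separate in FC and HIP for every gene, and in STR for Myh11.

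Promoter sequence is shown for 2 of these genes because smooth muscle genes share a known control element, the CArG box, that serum response factor binds. RefSeq (GRCm38.p6) held a promoter for 27 of the 40 genes and for 4 of the 6 smooth muscle genes (Acta2, Myl9, Cnn1 and Des). The 250 bases before the RefSeq start follow, on the strand of the gene, for Acta2 (chr19:34255374-34255623, minus strand) and Myl9 (chr2:156775214-156775463, plus strand). Capitals mark matches to the CArG box on either strand with at most 1 mismatch.
Acta2: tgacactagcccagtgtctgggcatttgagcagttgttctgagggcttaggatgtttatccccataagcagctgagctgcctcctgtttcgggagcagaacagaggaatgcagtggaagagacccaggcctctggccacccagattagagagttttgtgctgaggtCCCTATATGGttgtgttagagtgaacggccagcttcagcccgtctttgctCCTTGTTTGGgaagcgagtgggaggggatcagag
Myl9: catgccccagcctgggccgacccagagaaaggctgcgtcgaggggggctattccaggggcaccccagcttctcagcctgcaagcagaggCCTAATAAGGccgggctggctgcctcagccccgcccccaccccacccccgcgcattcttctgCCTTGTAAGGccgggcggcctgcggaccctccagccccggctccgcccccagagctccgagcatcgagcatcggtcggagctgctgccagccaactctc
In Acta2 the matches lay 84 to 75 and 34 to 25 bases before the start, each with 1 mismatch. In Myl9 the match 161 to 152 bases before the start was exact and that at 99 to 90 had 1 mismatch. Cnn1 and Des had no match in this window. Of all 32851 promoters of this length, 1.47% held an exact CArG box and 18.6% held 1 with at most 1 mismatch. A match of letters is a description and not a site in use.

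The 3 basement membrane genes passed the adjusted threshold in no region by edgeR. Col4a1 and Col4a2 encode the α1 and α2 chains of type IV collagen, which assemble together into the main collagen of the vessel basement membrane. Their genes lie head to head on chromosome 8 (GRCm38 and GENCODE, chr8:11198423-11312826, minus strand, and chr8:11312805-11449287, plus strand). Their first exons overlap by 22 bases. These bases are printed on the strand of Col4a2 to show the shared start, from the start of Col4a2 to that of Col4a1, with a GC box in capitals.
Col4a2 to Col4a1: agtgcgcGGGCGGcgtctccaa
The GC box (GGGCGG, either strand) is common, at 32.7% of all promoters in the 250 bases before the start. The box shown lies after both starts and in a window of 22 bases, so that share is not its background.

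In the frontal cortex Col4a1 was at 29.7, 31.2 and 26.6 CPM in WT and at 18.9, 25.2 and 18.9 CPM in Pcm1 KO (-0.48 ± 0.12, unadjusted p = 0.00343, adjusted p = 0.0990). Col4a2 was at 41.7, 39.5 and 30.8 CPM in WT and at 23.0, 30.6 and 19.5 CPM in Pcm1 KO (-0.62 ± 0.17, unadjusted p = 0.00487, adjusted p = 0.116). Both were wholly lower in Pcm1 KO, with the Col4a2 groups separated by the narrow gap between 30.6 and 30.8 CPM. Without WT frontal cortex replicate 3 both were called (adjusted p = 0.0467 for Col4a1 and 0.0344 for Col4a2), as they were with DESeq2 (0.00744 and 0.00401). In the striatum their log2 fold changes were 0.03 ± 0.13 and 0.04 ± 0.12, and in the hippocampus -0.18 ± 0.10 and -0.16 ± 0.14. Pcm1 itself lies on chromosome 8, 29.9 and 29.8 megabases from Col4a1 and Col4a2. Cdh5 is on the same chromosome, 62.8 megabases from Pcm1. Whether DNA of the stem cell line still flanks the insertion over these distances was not tested.

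Igfbp7, a secreted insulin-like growth factor binding protein of vessel walls, had the most negative value of these 3 genes in the striatum and in the hippocampus. It was at 17.2, 17.3 and 18.2 CPM in WT striatum and at 11.8, 13.2 and 14.2 CPM in Pcm1 KO striatum, with no overlap (-0.43 ± 0.09, unadjusted p = 0.00167, adjusted p = 0.147). DESeq2 called it in the striatum (0.0207). In the hippocampus it was at 22.2, 15.4 and 16.2 CPM in WT and at 12.7, 12 and 13.9 CPM in Pcm1 KO (-0.49 ± 0.16, adjusted p = 0.424). In the frontal cortex the difference was 0.04 ± 0.08.

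Pericyte genes had smaller negative values in Pcm1 KO, and none passed the adjusted threshold by edgeR within a region. Rgs5 was at 92.4, 93.1 and 101.9 CPM in WT striatum and at 78.3, 85.5 and 75.8 CPM in Pcm1 KO striatum, with no overlap (-0.26 ± 0.07, unadjusted p = 0.00524, adjusted p = 0.201). It was also non-overlapping in the frontal cortex (-0.32 ± 0.09), where DESeq2 called it, while in the hippocampus Pcm1 KO replicate 2 reached 99.7 CPM, inside the WT range of 78.1 to 101.7 CPM. Vtn was at 64.7, 59.8 and 53.1 CPM in WT hippocampus and at 41.6, 39.0 and 35.8 CPM in Pcm1 KO hippocampus. Its log2 fold change was -0.63 ± 0.10, with an unadjusted p of 0.000196 and an adjusted p of 0.287, and the gap between the groups was wide. Vtn was called in the hippocampus by DESeq2 (adjusted p = 6.10e-05) and by edgeR in 1 fit of all 18 libraries without lane (0.0186) or with it (0.00521). In the frontal cortex and the striatum Vtn was at -0.25 ± 0.12 and -0.22 ± 0.07. Pdgfrb, the receptor through which endothelium recruits pericytes, was at -0.23, -0.18 and -0.19 in the 3 regions. Kcnj8 and Abcc9 encode the pore and the sulfonylurea receptor of the ATP-sensitive potassium channel of pericytes. Kcnj8 ranged from -0.15 to 0.09 over the regions and Abcc9 from -0.35 to -0.19. Notch3, the Notch receptor of mural cells, was at 12.2, 12.1 and 11.4 CPM in WT hippocampus and at 9.44, 8.94 and 9.28 CPM in Pcm1 KO hippocampus, yet at 0.06 ± 0.11 in the striatum.

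Of the 15 endothelial junction and receptor genes, 13, 13 and 14 had negative values in the 3 regions. Kdr, which encodes VEGF receptor 2, was at 12.1, 14.99 and 13.8 CPM in WT striatum and at 10.2, 11.1 and 10.49 CPM in Pcm1 KO striatum (-0.36 ± 0.11, unadjusted p = 0.0101, adjusted p = 0.229). Pecam1 was at -0.32 ± 0.13, -0.23 ± 0.09 and -0.55 ± 0.17. Flt1, VEGF receptor 1, was at -0.34 ± 0.10, -0.22 ± 0.12 and -0.44 ± 0.14, and Cdh5, the cadherin of endothelial adherens junctions, at -0.34 ± 0.11, -0.14 ± 0.09 and -0.40 ± 0.16. Cldn5 was at -0.39 ± 0.25, -0.30 ± 0.24 and -0.46 ± 0.19. Von Willebrand factor (Vwf), the clotting glycoprotein stored by endothelium, had large negative values with large errors (-0.41 ± 0.31, -0.50 ± 0.34 and -0.72 ± 0.39), and its WT libraries ranged from 14.1 to 35.7 CPM in the frontal cortex. Esam, an adhesion molecule of endothelial tight junctions, was positive in all 3 regions (0.08, 0.18 and 0.02). The other junction and receptor genes Emcn, Tek, Tie1, Eng, Robo4, Nos3, Ly6c1 and Ly6a lay between -0.55 and 0.06. No gene of this group passed the adjusted threshold by edgeR with all libraries. Flt1 was called in the frontal cortex by DESeq2, and Cdh5 and Pecam1 were called there by edgeR without WT replicate 3.

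For the barrier transport genes the median log2 fold change was 0.02, -0.06 and -0.13 in the 3 regions, with 3, 5 and 6 of 7 negative. Slc2a1 was at -0.11 ± 0.10, -0.07 ± 0.10 and -0.28 ± 0.16. The organic anion transporters Slco1a4 and Slco1c1, of which the latter carries thyroid hormone, stayed between -0.09 and 0.05, and Abcb1a, the drug efflux pump P-glycoprotein, between -0.44 and -0.16. Itm2a, a small membrane protein enriched in brain endothelium, went the other way. It was at 31.0, 35.1 and 30.5 CPM in WT frontal cortex and at 37.5, 36.3 and 40.4 CPM in Pcm1 KO frontal cortex, wholly above WT (0.23 ± 0.07, unadjusted p = 0.0118, adjusted p = 0.179). In the striatum it was again wholly above WT (0.20 ± 0.08, unadjusted p = 0.0477), and in the hippocampus it was at 0.02 ± 0.12. Pltp, the phospholipid transfer protein, and Bsg ranged from -0.23 to 0.03. Of the transcription factors, Sox17, which drives arterial identity, was at -0.43 ± 0.17, -0.11 ± 0.20 and -0.47 ± 0.18, and Sox18 and Foxq1 lay between -0.54 and 0.08.

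The genotype differences were compared between regions by an interaction term over all 18 libraries. It called 0 of the 40 genes (0.0114% of all genes) at an adjusted p under 0.05 by edgeR, and 6 of 40 at an unadjusted p under 0.05 (5.54% of all genes). These 6 were Acta2, Igfbp7, Notch3, Col4a2, Vtn and Col4a1. For Acta2 the striatal difference exceeded that in the frontal cortex by 1.31 ± 0.31 on the log2 scale, with an unadjusted p of 0.00137 for the interaction and an adjusted p of 0.393. That fit has no term for the animal, although the 3 regions of a mouse share it. With the animal as a block, an alternative chosen after seeing the data, 0 of the 40 and 0 of all genes passed the adjusted threshold. The same 6 genes were under 0.05 unadjusted (7.89% of all genes), Acta2 with 1.31 ± 0.28 for the striatum against the frontal cortex and an adjusted p of 0.251, Col4a2 with 0.269, Col4a1 with 0.278 and Igfbp7 with 0.377. Genotype differences of Acta2, Col4a1, Col4a2 and Igfbp7 were therefore not shown to differ between regions at the adjusted threshold. In the striatum all 3 WT libraries were sequenced on lane 5 and the Pcm1 KO libraries on lanes 3, 4 and 4, and there the lane cannot be told apart from the genotype.

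Spread between WT animals was wide for endothelial genes. WT animal A was highest of the 3 WT animals for 32 of the 40 genes in the frontal cortex and for 27 in the hippocampus, but for 12 in the striatum. Cldn5 in animal A was at 34.3, 28.2 and 25.3 CPM in the 3 regions, against 14.9 to 19.4 CPM in the other 6 WT libraries. The summed junction and receptor genes were at 404.9, 282.8 and 286.9 CPM in WT frontal cortex and at 255.8, 259.1 and 273.6 CPM in Pcm1 KO frontal cortex. Without animal A, the median log2 fold change of the 40 genes was -0.12 (frontal cortex) and -0.21 (hippocampus), in place of -0.31 and -0.37. The summed smooth muscle genes did not rest on that animal, at 29.1, 25.8 and 24.1 CPM in WT frontal cortex against 15.3, 13.5 and 17.95 CPM in Pcm1 KO, and at 45.8, 51.1 and 31.9 CPM in WT hippocampus against 23.4, 25.0 and 22.7 CPM in Pcm1 KO. The median coefficient of variation of the 40 genes within a group was 8.72% to 18.3%, and that of all genes of at least 1 CPM was 5.24% to 10.9%.

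**Figure D3:**
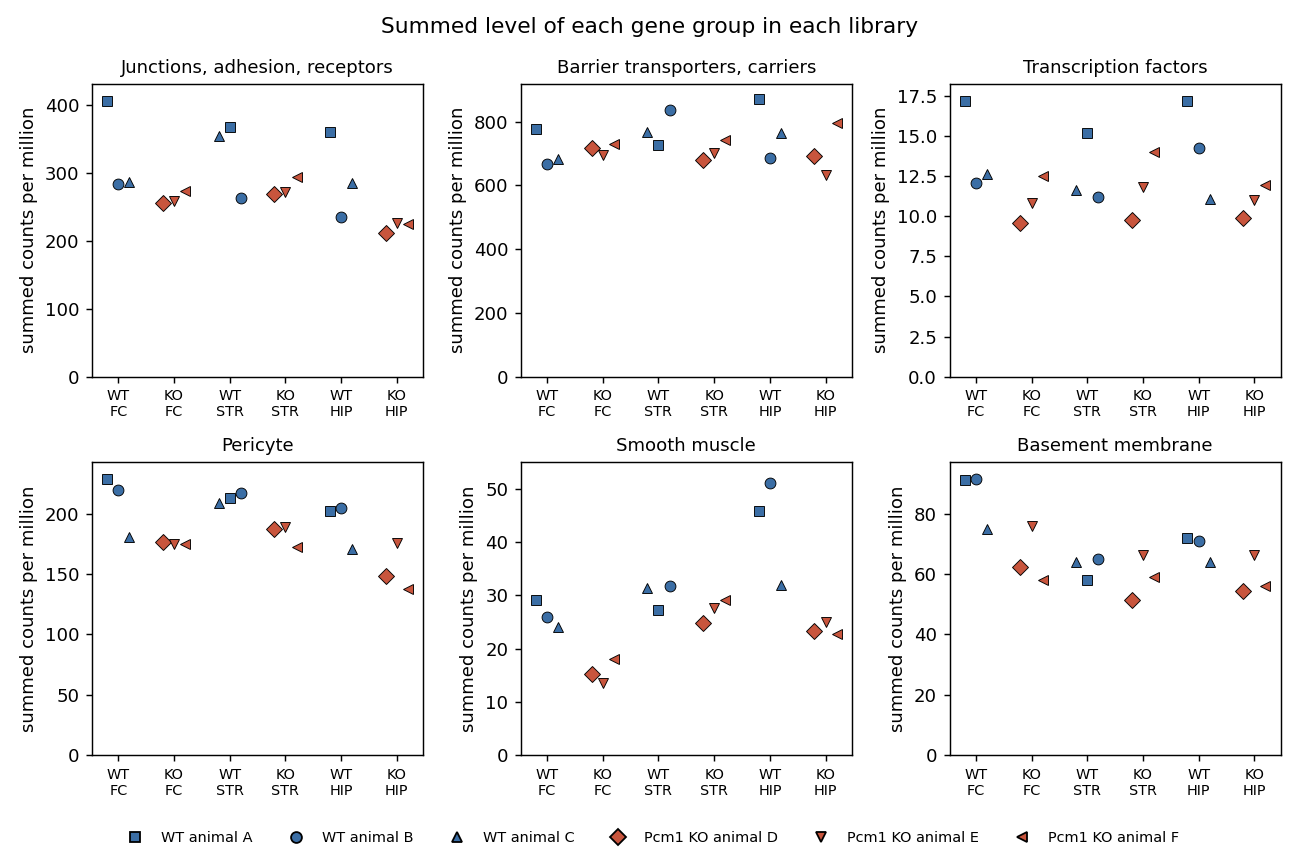
Summed CPM (y axis) of each gene group in each of the 18 libraries, with a symbol for each animal (blue WT, red Pcm1 KO). WT animal A (squares) reached 404.9 CPM for junction and receptor genes in the frontal cortex. The smooth muscle sums of WT and Pcm1 KO do not overlap in the frontal cortex (FC) and the hippocampus (HIP) and do in the striatum (STR).

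Summed levels of some markers of other cells also separated the genotypes. In the lists of blood, meningeal fibroblast, choroid plexus, microglia, oligodendrocyte and astrocyte genes, 0 passed the adjusted threshold in any region by edgeR, and the values below are signs, medians and sums. Red blood cell genes summed to 109.6 to 175.6 CPM in WT frontal cortex and to 35.9 to 79.3 CPM in Pcm1 KO frontal cortex, and to 125.5 to 216.5 and 33.7 to 70.1 CPM in the hippocampus. In the striatum these ranges were 72.2 to 227.4 and 44.0 to 92.7 CPM. All 6 blood genes tested were negative in each region, with medians of -1.25, -1.01 and -1.52. At an unadjusted p under 0.05, 6, 5 and 5 of them were lower, against 7.47%, 6.98% and 5.06% of all genes. Meningeal fibroblast genes, such as the collagen gene Col1a1, were negative for 10, 11 and 10 of 11, with medians of -0.43, -0.76 and -0.57. Their sums were 133.7 to 188.7 CPM in WT and 83.7 to 172.4 CPM in Pcm1 KO frontal cortex, 70.5 to 364.4 and 50.7 to 58.6 CPM in the striatum, and 235.2 to 515.0 and 120.1 to 259.2 CPM in the hippocampus. The highest sums were mostly 1 gene, Igf2, at 317.8 CPM in WT striatum replicate 3 and 354.7 CPM in WT hippocampus replicate 1. These libraries also had the highest choroid plexus sums of their regions. Col1a1 was at 2.50, 3.24 and 2.76 CPM in WT striatum, so replicate 3 did not stand apart for it. Choroid plexus genes were negative for 8, 11 and 11 of 11, but without WT striatum replicate 3 the striatal count was 1 of 11, with a median of 0.30. Leaving out that library moved the striatal medians of the fibroblast genes to -0.37 and of the blood genes to -0.63. Microglia genes were negative for 9 of 9 in each region, with medians between -0.37 and -0.18, and oligodendrocyte genes for 7 of 7, with medians between -0.59 and -0.24. General neuron genes went the other way in the frontal cortex, where 7 of 8 were positive (median 0.12), 2 of them at the adjusted threshold and 3 with no overlap, whereas outside the frontal cortex 4 of 8 were positive in each region. The 5 striatal neuron genes were all positive in the striatum (median 0.29), 3 of them with no overlap and 0 at the adjusted threshold. Astrocyte genes were negative for 4, 6 and 5 of 8, with medians of -0.04, -0.09 and -0.11. The part of these other cells and of retained blood in the vessel gene differences was not tested.

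**Figure D4:**
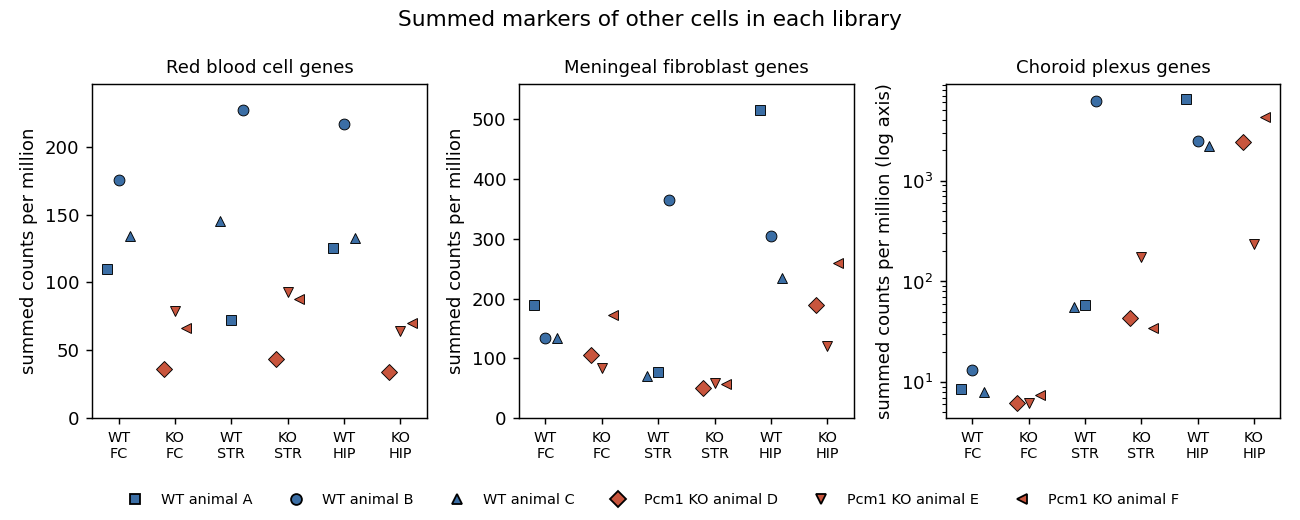
Summed CPM (y axis, logarithmic for the choroid plexus) of red blood cell, meningeal fibroblast and choroid plexus genes in each library, with a symbol for each animal. WT blood sums exceed those of Pcm1 KO without overlap in the frontal cortex (FC) and hippocampus (HIP), and WT striatum (STR) replicate 3 lies at 6215 CPM for the choroid plexus.

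A further 177 genes of vessel biology, grouped in 6 lists, were all tested. At the adjusted threshold 1 was higher and 3 were lower in the frontal cortex, a share near the 1.74% of all genes, and 0 were in the striatum and hippocampus. At an unadjusted p under 0.05, 28, 33 and 40 of the 177 were lower in the 3 regions, against 7.47%, 6.98% and 5.06% of all genes, and 12, 9 and 5 were higher, against 7.84%, 6.54% and 4.84%. Their median log2 fold changes were -0.17, -0.18 and -0.24. Edn1 (endothelin-1), the vasoconstrictor that endothelium releases onto smooth muscle, was at 4.41, 3.92 and 3.47 CPM in WT frontal cortex and at 0.972, 2.16 and 1.76 CPM in Pcm1 KO frontal cortex (-1.28 ± 0.26, adjusted p = 0.0475). It was the called gene among 36 ligands and signalling genes. It was also wholly lower in the striatum, at 4.63, 5.33 and 4.33 CPM in WT and 1.5, 2.93 and 2.03 CPM in Pcm1 KO (-1.14 ± 0.24, adjusted p = 0.147), and in the hippocampus, at 2.77, 2.21 and 2.32 CPM in WT and 0.724, 1.93 and 1.14 CPM in Pcm1 KO (-0.98 ± 0.34, adjusted p = 0.442). Sema3g, a semaphorin of arterial endothelium, was at 7.07, 6.47 and 6.82 CPM in WT and at 4.20, 4.45 and 4.18 CPM in Pcm1 KO frontal cortex (-0.67 ± 0.10, adjusted p = 0.0205). Rassf3 was higher in the same list of 45 other endothelial genes (0.33 ± 0.06, adjusted p = 0.0406). Tfrc, the transferrin receptor that carries iron across the barrier and is expressed by neurons as well, was lower among 20 other barrier transporters (-0.35 ± 0.07, adjusted p = 0.0442). All 4 lost their call with lane as a covariate (adjusted p 0.0822 to 0.131), in 1 fit of all 18 libraries without lane (0.0630 to 0.405) or with it (0.114 to 0.498) and when any of Pcm1 KO replicates 1, 2 and 3 or WT replicates 1 and 2 was left out (adjusted p 0.0574 to 0.255). Edn1 also lost it with a filter of at least 1 CPM in 3 libraries (0.0512). Of 24 other basement membrane genes, 22, 20 and 21 were negative with medians of -0.30, -0.29 and -0.44. Of 30 other mural genes, 22, 23 and 26 were negative (medians -0.24, -0.25 and -0.26), and of 22 genes of barrier Wnt signalling and junctions 19, 21 and 19 (medians -0.17, -0.22 and -0.22).

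The second question was whether vessel genes differed between brain regions, tested in the 9 WT libraries and again in the 9 Pcm1 KO libraries, which came from other animals. In WT, the smooth muscle genes Acta2 and Myh11 were higher in the hippocampus than in the other regions, the pericyte genes Notch3, Abcc9 and Kcnj8 were higher in the striatum than in the hippocampus, and Col4a1 and Col4a2 were lower in the striatum than in the frontal cortex. Of the 15 junction and receptor genes Esam was called, for the hippocampus against the frontal cortex. From the frontal cortex to the striatum 3 of 40 genes were higher and 3 lower, where 20.6% and 20.9% of all genes were called. From the frontal cortex to the hippocampus 4 were higher and 4 lower (14.5% and 15.3% of all genes), and in the striatum against the hippocampus 3 were higher and 3 lower (14.4% and 14.8%). With the animal as a block, which pairs the regions of 1 mouse, 15 genes (5 higher and 10 lower) were called for the hippocampus against the frontal cortex and 15 (10 higher and 5 lower) for the striatum against the hippocampus. The block raised the share of all genes called as well, to 17.9% higher and 19.1% lower in the former and 17.9% and 17.2% in the latter, so these counts were in all near the background. The junction and receptor genes called with the block for the hippocampus against the frontal cortex were Esam, Eng, Flt1, Robo4 and Vwf. For the striatum against the frontal cortex the block called 4 higher and 3 lower, with Vwf added (adjusted p = 0.0104 by edgeR). All genes called there went from 7289 to 8446. For the hippocampus against the frontal cortex the count of 8 fell to 1 without WT frontal cortex replicate 2, to 2 without WT hippocampus replicate 1, to 3 without WT frontal cortex replicate 1, and to 4 without WT hippocampus replicate 2 or 3. All genes called fell as well, from 5230 to 3722, 4237, 4104, 5182 and 4440 in the same order. The count of 6 for the striatum against the frontal cortex fell to 3 without WT frontal cortex replicate 2, and all genes called from 7289 to 5877.

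Notch3 was at 13.7, 13.7 and 13.6 CPM in WT frontal cortex, at 18.4, 19.7 and 16.7 CPM in WT striatum and at 12.2, 12.1 and 11.4 CPM in WT hippocampus. The striatal libraries were all above the others, and the log2 fold change was 0.42 ± 0.09 against the frontal cortex (adjusted p = 0.00499) and 0.63 ± 0.09 against the hippocampus (adjusted p = 0.000544). In Pcm1 KO animals the same differences were 0.62 ± 0.09 (adjusted p = 0.000142) and 1.05 ± 0.09 (adjusted p = 3.35e-06). Abcc9 was at 12.7, 12.5 and 11.7 CPM in WT frontal cortex, at 17.8, 15.1 and 14.2 CPM in striatum and at 9.86, 8.02 and 9.34 CPM in hippocampus, in order with no overlap. It was higher in the striatum than in the hippocampus by 0.80 ± 0.12 in WT (adjusted p = 0.000599) and 0.67 ± 0.12 in Pcm1 KO (adjusted p = 0.000986). Against the frontal cortex (0.36 ± 0.12, adjusted p = 0.0368) its call was lost when WT frontal cortex replicate 1, 2 or 3 or WT striatum replicate 1 or 2 was left out (adjusted p 0.0617 to 0.150), with lane as a covariate (0.0949) and with no low-count filter (0.0503). Kcnj8, its partner in the channel, was at 3.54, 3.73 and 2.73 CPM in WT frontal cortex, at 4.63, 3.67 and 3.56 CPM in striatum and at 2.39, 1.80 and 2.42 CPM in hippocampus. It was higher in the striatum than in the hippocampus by 0.85 ± 0.20 in WT (adjusted p = 0.00793) and by 0.59 ± 0.13 in Pcm1 KO (adjusted p = 0.00380). It was lower in the hippocampus than in the frontal cortex (-0.60 ± 0.20, adjusted p = 0.0437), a call lost without WT frontal cortex replicate 1 or 2, any WT hippocampus replicate or WT striatum replicate 2 (adjusted p 0.0594 to 0.152), and with DESeq2 (0.0537), lane as a covariate (0.0563), no low-count filter (0.0812) or the replicate number as a block (0.0633). With the animal as a block it was kept. Kcnj8 and Abcc9 are neighbours on chromosome 6.

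Among the smooth muscle genes, the Acta2 values given above were higher in WT hippocampus than in WT frontal cortex by 1.25 ± 0.26 on the log2 scale (1.52 ± 0.12 in Pcm1 KO), with adjusted p of 0.00481 and 4.92e-06 by edgeR. The striatal values are given by genotype, and the interaction above did not pass the adjusted threshold. In WT, Acta2 in the striatum was lower than in the hippocampus (-0.99 ± 0.26, adjusted p = 0.0145, lost without WT hippocampus replicate 2 or WT striatum replicate 2 at 0.0543 and 0.0600, and with lane as a covariate at -0.52 and an adjusted p of 0.154) and was at 0.26 ± 0.26 against the frontal cortex. In Pcm1 KO it was at 0.05 ± 0.11 against the hippocampus and higher than in the frontal cortex by 1.57 ± 0.12 (adjusted p = 1.71e-06). Myh11 in WT was higher in the hippocampus than in the frontal cortex (0.62 ± 0.17, adjusted p = 0.0191) and lower in the striatum than in the hippocampus (-0.67 ± 0.17, adjusted p = 0.0121). The former call was lost without WT frontal cortex replicate 2 (0.0784) or WT hippocampus replicate 1 (0.0643), the latter without WT striatum replicate 2 (0.0508), with lane as a covariate (0.0636) and in 1 fit of all 18 libraries with lane (0.0514), and in Pcm1 KO these differences were 0.37 ± 0.21 and -0.08 ± 0.20. Tagln was at 4.83, 3.99 and 3.87 CPM in WT frontal cortex against 8.55, 7.12 and 4.53 CPM in WT hippocampus (0.66 ± 0.21, adjusted p = 0.0398), with every WT hippocampus value but the lowest above the WT frontal cortex range. The call was lost without any WT frontal cortex replicate, WT hippocampus replicate 1 or 2, or WT striatum replicate 1 or 2 (adjusted p 0.0520 to 0.148). Cnn1, of few counts, was at 0.294, 0.216 and 0.105 CPM in WT striatum and at 0.424, 1.01 and 0.705 CPM in WT hippocampus (-1.78 ± 0.45, adjusted p = 0.0125). Its call against the frontal cortex (-1.34 ± 0.46, adjusted p = 0.0394) was lost without any WT frontal cortex replicate, WT hippocampus replicate 3 or WT striatum replicate 2 or 3 (adjusted p 0.0532 to 0.122), and with DESeq2 (0.0707), lane as a covariate (0.0872), no low-count filter (0.0515) or the replicate number as a block (0.0658). With a filter of at least 1 CPM in 3 libraries Cnn1 was not tested.

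Col4a1 was at 29.7, 31.2 and 26.6 CPM in WT frontal cortex and at 21.02, 18.1 and 21.3 CPM in WT striatum, with no overlap (-0.53 ± 0.09, adjusted p = 0.00125). Col4a2 was at 26.1, 22.8 and 25.7 CPM in WT striatum, below every WT frontal cortex library (-0.58 ± 0.13, adjusted p = 0.00413, lost in 1 fit of all 18 libraries with lane at 0.0631). It was also lower in the hippocampus than in the frontal cortex (-0.48 ± 0.13, adjusted p = 0.0171), a call lost without WT frontal cortex replicate 1 or 2 or WT hippocampus replicate 1 or 3 (adjusted p 0.0570 to 0.0737). In Pcm1 KO the striatum against frontal cortex differences of Col4a1 and Col4a2 were -0.03 ± 0.15 and 0.07 ± 0.18. Igfbp7 had the opposite order of genotypes, at -0.15 ± 0.14 in WT and -0.62 ± 0.09 in Pcm1 KO for the striatum against the frontal cortex (adjusted p = 0.431 and 0.000127). These are the same libraries as in the genotype comparisons, so they repeat those values in another arrangement.

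Of the endothelial genes, Pltp was at 48.1, 37.6 and 39.3 CPM in WT frontal cortex and at 57.7, 54.0 and 67.1 CPM in WT striatum (0.52 ± 0.14, adjusted p = 0.0147). That call was lost without WT frontal cortex replicate 2 or 3 or WT striatum replicate 3 (adjusted p = 0.0642, 0.0538 and 0.0513), the last being the library with choroid plexus RNA, and in 1 fit of all 18 libraries with lane (0.203). Esam was at 15.8, 12.8 and 12.6 CPM in WT frontal cortex and at 10.2, 9.93 and 9.07 CPM in WT hippocampus (-0.50 ± 0.16, adjusted p = 0.0368). Its call was lost without any WT frontal cortex or WT hippocampus replicate or WT striatum replicate 2 (adjusted p 0.0521 to 0.139), while in Pcm1 KO it was called at -0.55 ± 0.10 (adjusted p = 0.00140).

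In Pcm1 KO libraries, 9 of 40 genes were higher and 2 lower in the striatum than in the frontal cortex (27.2% and 27.1% of all genes), 1 higher and 13 lower in the hippocampus than in the frontal cortex (20.2% and 21.2%), and 20 higher and 1 lower in the striatum than in the hippocampus (21.9% and 23.1%). The count of 11 for the striatum against the frontal cortex fell to 6 without Pcm1 KO frontal cortex replicate 1 and to 7 without Pcm1 KO frontal cortex replicate 2 or Pcm1 KO striatum replicate 3. All genes called fell from 9524 to 8220, 8430 and 8486 in the same order. With the animal as a block, 10 of the 40 genes were higher and 3 lower, 2 and 16, and 20 and 1 in these 3 comparisons. All genes called were then 9887, 7698 and 8276, in place of 9524, 7273 and 7896. The 20 genes higher in the striatum than in the hippocampus included Robo4, a guidance receptor of endothelium (0.82 ± 0.11, adjusted p = 9.09e-05), Abcb1a (0.56 ± 0.10, adjusted p = 0.000967), Flt1 (0.46 ± 0.07, adjusted p = 0.000429) and Itm2a (0.44 ± 0.08, adjusted p = 0.000697). In WT these 4 were at 0.56 ± 0.24, 0.30 ± 0.25, 0.26 ± 0.16 and 0.29 ± 0.11, the same sign with larger errors, and did not pass the adjusted threshold. With the animal as a block all 4 passed it in WT as well, at 0.53 ± 0.16, 0.33 ± 0.11, 0.27 ± 0.09 and 0.29 ± 0.08 (adjusted p 0.0238 to 0.0484). Of the genes called in WT and in Pcm1 KO for the same pair of regions, 2, 4 and 3 were called in both genotypes for the striatum against the frontal cortex, the hippocampus against the frontal cortex and the striatum against the hippocampus, each in the same direction. Median log2 differences of the 40 genes in these 3 comparisons were 0.04, -0.10 and 0.07 in WT and 0.13, -0.17 and 0.26 in Pcm1 KO.

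**Figure D5:**
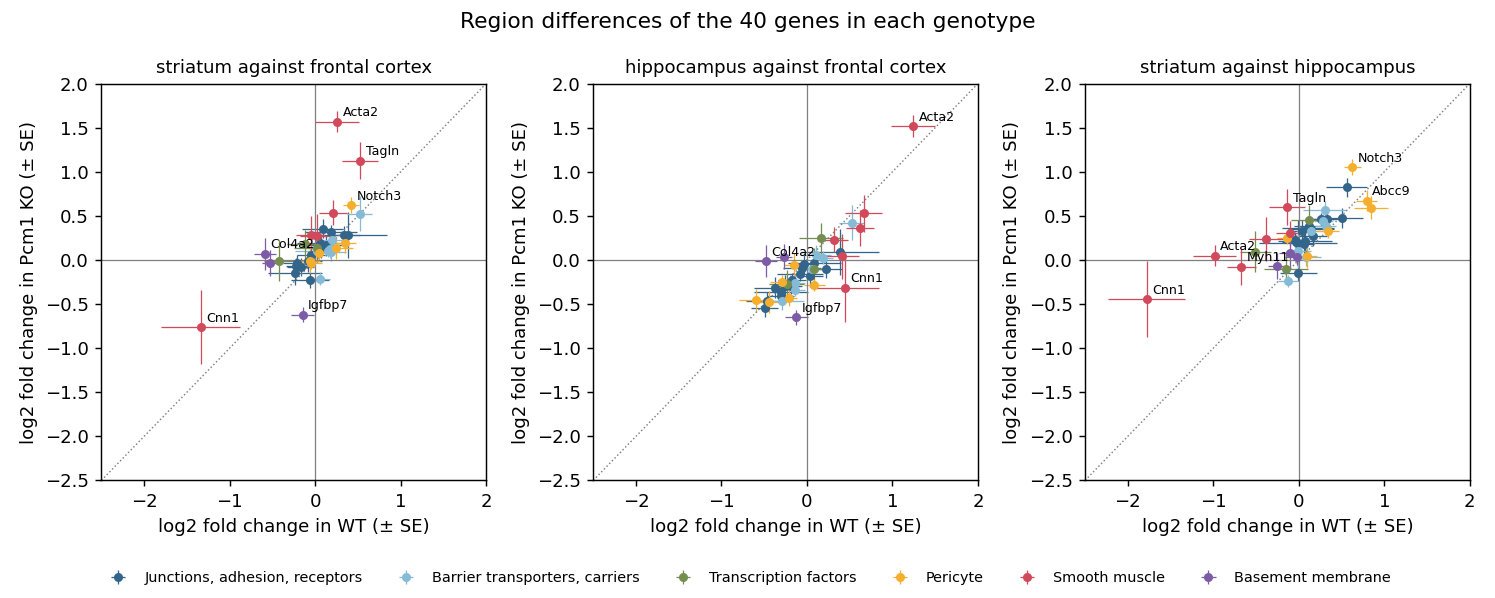
Log2 fold change between regions in WT (x axis, ± SE) against that in Pcm1 KO (y axis, ± SE) for the 40 genes, in 1 panel per pair of regions, coloured by gene group, with equal values on the dotted line. Acta2 lies near the line for the hippocampus against the frontal cortex (1.25 and 1.52) and far above it for the striatum against the frontal cortex (0.26 and 1.57).

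Of the further 177 vessel genes, 30 were higher and 31 lower in WT striatum than in WT frontal cortex (20.6% and 20.9% of all genes), 37 and 23 in the hippocampus against the frontal cortex (14.5% and 15.3%), and 19 and 28 in the striatum against the hippocampus (14.4% and 14.8%). The list holds genes that neurons also express. Itga5, an integrin subunit, was at 28.9 ± 2.56 CPM in WT striatum, 2.10 ± 0.46 CPM in WT frontal cortex and 2.68 ± 1.37 CPM in WT hippocampus (SD, n = 3), a difference of 3.78 ± 0.30 (SE) and 3.44 ± 0.29 on the log2 scale (adjusted p = 4.71e-06 and 8.60e-06 by edgeR). Ebf1, a transcription factor, was higher in the striatum than in the frontal cortex by 2.65 ± 0.16 (adjusted p = 6.91e-07). Cd34, a sialomucin of endothelium, was at 25.9 ± 1.86 CPM in WT striatum and 113.7 ± 11.7 CPM in WT frontal cortex (-2.13 ± 0.10, adjusted p = 1.16e-07). Itga8, another integrin subunit, was lower in the striatum than in the frontal cortex (-1.80 ± 0.26, adjusted p = 0.000323) and the hippocampus (-3.32 ± 0.26, adjusted p = 5.48e-06), and Nrp2, a semaphorin receptor, was lower in the striatum than in the hippocampus (-2.64 ± 0.16, adjusted p = 7.56e-07). Against the frontal cortex, Zic1 and Tgfb2 were higher in WT hippocampus by 3.04 ± 0.51 and 2.70 ± 0.42 (adjusted p = 0.00139 and 0.000864), and Gucy1a1 and Rassf3 lower (-1.61 ± 0.18 and -1.46 ± 0.15, adjusted p = 0.000134 and 6.40e-05). Gucy1a1, a subunit of the guanylate cyclase that nitric oxide activates in mural cells, was at 241.7 ± 17.9 CPM in WT striatum and 50.4 ± 15.4 CPM in WT hippocampus (2.26 ± 0.19, adjusted p = 7.52e-06). These 12 calls held in 18 of 18 alternatives. Which cells gave these differences cannot be told in bulk tissue.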

How the data were processed

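RNA from 18 dissected brain samples of 6 adult mice was sequenced as stranded poly(A) libraries. Per the paper's methods the authors trimmed reads with Trim Galore and Cutadapt, aligned them to GRCm38 with STAR, kept uniquely mapped reads and counted them per gene with HTSeq. Versions and the strand setting are not given in the sources used here. The deposited files hold raw counts per gene, not normalized. Reads assigned to no feature or to several genes were left out of library sizes, and 86.8% to 89.2% of counts fell on genes. Genes reaching 10 counts in any library were tested with edgeR 4.0.16 (R 4.3.3, TMM scaling, quasi-likelihood test, Benjamini-Hochberg adjustment, threshold 0.05), by genotype within each region (6 libraries), by region within each genotype (9 libraries) and for the interaction (18 libraries). The standard error was taken as the absolute log2 fold change over the root of the F statistic. CPM used TMM factors over all 18 libraries, and CPM per kilobase used exon lengths of GENCODE M21. The scripts were tested on simulated data. Alternatives were DESeq2 1.42.0 as a test or for scaling, other filters, lane, blocks, 1 fit of all libraries and leaving out each library.

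File names give the animal of each library. Libraries of the same animal correlated over genes in their deviations from the group means (mean 0.124 to 0.338 by pair of regions and genotype, lowest single value 0.0801), so the animal pairs the regions. Nothing in the labels says that replicate numbers pair WT with Pcm1 KO libraries. Each mouse is 1 replicate. The members and the gene lists were chosen with earlier results of these data known. Values of every sample were given for members called in a genotype comparison (at most 10 per region, and up to 4 of smallest unadjusted p where fewer than 4 passed) and for the 3 largest rises and 3 largest falls among called members of each WT region comparison. Further vessel genes were named where called by genotype (at most 5 per region) or among the 2 largest rises and falls by region at an average log2 CPM of at least 0. Other genes given with every value were chosen after their values were seen. RefSeq promoters (GRCm38.p6) were searched on both strands for the CArG box and for GGGCGG over the 250 bases before each start.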

Additional observations from a re-analysis of the deposited data

How the results depend on the processing

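In the set compared, no gene called in the main fit or in an alternative had opposite signs between them. No median changed sign by as much as its SD between libraries. A change of sign in a gene called in neither fit was not counted. Choroid plexus genes, whose striatal median turned positive without WT striatum replicate 3, were not in that set. Of the values for single genes under alternatives, 423 stayed on their side of the threshold, 21 passed it where they had not and 97 no longer passed it. In the frontal cortex the 1 gene of 40 called between genotypes became 2 in 1 fit of all 18 libraries, 0 in that fit with lane, 0 with lane as a covariate, 7 with DESeq2, 4 with no low-count filter and 0 to 7 when a library was left out (0 without any Pcm1 KO replicate or WT replicate 2, 7 without WT replicate 3). Of all genes, 306 were called there, and 176, 95, 29, 690, 505 and 11 to 825 under these alternatives in the same order. The count lower at an unadjusted p under 0.05 (14) was 7 in the fit of all libraries with lane and 9 with lane, and 10 to 21 without a library. The median of -0.31 was -0.14 with lane and -0.37 to -0.12 without a library. In the striatum DESeq2 called 1 gene in place of 0 (488 of all genes in place of 5), and the count lower (8) was 4 in the fit of all libraries and 6 to 15 without a library. In the hippocampus the count of 0 became 3 in the fit of all libraries, 2 with lane added and 4 with DESeq2 (205, 160 and 220 of all genes in place of 3), the count lower (18) was 11 to 19 and the median (-0.37) was -0.42 to -0.21 without a library.

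Between regions, the WT counts of 8 (hippocampus against frontal cortex) and 6 (striatum against hippocampus) were both 15 with the animal as a block, and without a library they were 1 to 8 and 4 to 8, while that of 6 for the striatum against the frontal cortex was 3 to 7. All genes called went from 5230 and 5126 to 6492 and 6160 with the block, and to 3722 to 5430 and 4016 to 5153 without a library. For the striatum against the frontal cortex they went from 7289 to 5877 to 7604 without a library. In Pcm1 KO the count of 11 for the striatum against the frontal cortex was 6 in the fit of all libraries, 5 with lane added and 6 to 13 without a library. All genes called there went from 9524 to 8956, 8398 and 8220 to 10388. The count of 14 for the hippocampus against the frontal cortex was 9 in the fit of all libraries (6624 of all genes in place of 7273). That of 21 for the striatum against the hippocampus was 11 in that fit and 12 with lane added. It was 13 with lane as a covariate among the 9 libraries, an alternative chosen after seeing the data. All genes called there went from 7896 to 7284, 6764 and 6026. The causes were not tested.

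With a replicate block, 5 genes were called between genotypes in the frontal cortex (Acta2, Col4a1, Col4a2, Myh11 and Rgs5) and 0 in the striatum and hippocampus, while the number of all genes called in the frontal cortex went from 306 to 665. Same-numbered WT and Pcm1 KO libraries correlated at -0.269 to 0.507 in their deviations, and each region had at least 1 such pair under 0.1. Each library of the frontal cortex correlated best with its own number, those of the other regions did not all do so, and in the striatum the WT numbers run in another order of animals than elsewhere. The numbers were therefore not taken to pair the genotypes.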
